A study of Mus musculus with 4 samples.

Results

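Aquaporins are membrane channels that carry water, and in some members glycerol, across cell membranes. Reads on the exons of 8 aquaporin genes of the mouse (Aqp1, Aqp3, Aqp4, Aqp5, Aqp7, Aqp8, Aqp9 and Aqp11) were compared between small intestine and colon. The genes are listed by symbol, with earlier results of these data known, and are 8 of the 20812 condensed genes of the series. A condensed gene is a set of RefSeq exon blocks that exon-exon junctions join, named after the GENCODE M1 gene it overlaps. The other 4 aquaporin genes of the mouse (Mip, Aqp2, Aqp6 and Aqp12), which had between 0 and 24 reads per library, were counted in the same way.

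Small intestine and colon tissue, described in the study's methods as jejunum and distal colon, came from C57BL/6 mice aged 9 to 10 weeks, the weeks being given by the methods. The labels name no treatment. A cDNA fragmented and an RNA fragmented protocol were used, with 1 library per tissue in each. The cDNA fragmented libraries were made by SMART cDNA synthesis from polyadenylated RNA, amplified and then fragmented. The RNA fragmented libraries were made with the SOLiD V2 Whole Transcriptome Analysis Kit from RNA that the labels call depleted of ribosomal RNA, while the methods describe polyadenylated RNA for that protocol. The RNA fragmented data sets of the study are larger than these libraries, so whether its methods describe them is not known. The study describes both tissues as coming from the same mice, but which mouse gave which library is not labelled, and no group had a replicate within a protocol. Only the RNA fragmented libraries keep the strand: 675 of 676 reads of the 8 aquaporins in small intestine and 5400 of 5401 in colon lay on the annotated strand, against 52.6% and 50.8% of the reads in the cDNA fragmented libraries.

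Uniquely placed reads numbered 22484041 (small intestine) and 24798934 (colon) in the cDNA fragmented libraries and 2035386 and 3478387 in the RNA fragmented ones, so the RNA fragmented values are less precise. These were 29.01% and 29.77% of all reads in the cDNA fragmented and 5.59% and 9.28% in the RNA fragmented libraries. The part of this difference in the levels was not tested. Levels are RPKM, in which a gene's reads are divided by its exon length in kilobases and by the uniquely placed reads of the library in units of 1000000. Intervals in brackets are at the 95% level, exact Poisson for a level and exact conditional (binomial) for a ratio. They cover counting error only, since reads from amplified libraries are not independent molecules. All 7 small intestine markers and the colon markers Car1, Car4, Atp12a and Hoxb13 lay past 3-fold in the labelled tissue in both protocols, a rule that 2.73% and 3.73% of all genes met in small intestine and 3.21% and 6.56% in colon by cDNA and RNA fragmentation. The small intestine cDNA fragmented library stood apart in sex-linked genes, which were looked at after their values were seen: it held 1752 Xist reads, 19 Ddx3y reads and 0 reads of the Y-linked Eif2s3y, Kdm5d and Uty, whereas the other libraries held between 5 and 31 Xist reads and between 85 and 992 Ddx3y reads, and the colon cDNA fragmented library held 1191, 799 and 451 reads of the other 3. The cDNA fragmented pair therefore compares mice of different sex, which goes against a single mouse for both tissues of that pair, and sex and tissue cannot be told apart in it. Both RNA fragmented libraries held Y-linked reads. Of 8 pancreatic acinar markers, 6 lay past 3-fold in colon in the cDNA fragmented pair (3.21% of all genes did) and 6 in small intestine in the RNA fragmented pair (3.73% of all genes did), and Cpa1, Ctrb1, Pnlip, Prss2 and Cel did so in opposite directions. Clps was higher in small intestine in both pairs and supplied 325 of the summed 344 RPKM in the small intestine cDNA fragmented library, and Amy2a5 had 0 reads in all 4. The other sums were 929 RPKM in the colon cDNA fragmented and 2406 and 306 RPKM in the small intestine and colon RNA fragmented libraries. Cela1 alone supplied 544, 496 and 291 RPKM of these sums. Smooth muscle markers were higher in colon, with 5 of 5 called by limma (the test described further on, in which 9.55% of all genes were called higher in colon) and summed levels of 288 and 1190 RPKM in the small intestine and colon cDNA fragmented and of 221 and 2070 RPKM in the RNA fragmented libraries. The cDNA and RNA fragmented values are therefore given side by side throughout, and the part of these differences in the results was not tested.

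As background, aquaporins sit in the membrane as tetramers in which each subunit forms its own pore. The family is divided into water channels (Aqp1, Aqp2, Aqp4, Aqp5, Aqp6, Aqp8 and Mip), aquaglyceroporins that also pass glycerol (Aqp3, Aqp7 and Aqp9) and the more distant Aqp11 and Aqp12, which are found in membranes inside the cell. In the gut, epithelial cells move salt and nutrients and water follows, partly through such channels, with the colon taking back much of the remaining water.

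The pore is lined by a pair of short loops that carry the family signature of asparagine, proline and alanine. The stretches that encode this signature are shown because they show where the genes differ. Coding sequences of GENCODE M1, on the mm9 build that the deposited exons use, were searched in frame for asparagine followed by proline and then alanine, cysteine, serine or threonine, or by alanine and alanine. At least 2 matches were found in 5.07% of all 55414 coding transcripts, and at least 2 strict asparagine-proline-alanine matches in 0.581% of them. The pattern searched takes in the variants of Aqp7 and Aqp11, so that members match it is no test. Matches of Aqp4 are not reported here. The first and second match of 5 members are printed 5′ to 3′ on the coding strand, with the 3 codons of the signature in capitals.
Aqp8, first, chr7:130607707-130607733, plus strand: ggacacttcAACCCTGCTgtgtcgctg
Aqp8, second, chr7:130610116-130610142, plus strand: gcctgcatgAACCCTGCTcgtgccttt
Aqp1, first, chr6:55286701-55286727, plus strand: gctcacctcAACCCTGCGgtcacactg
Aqp1, second, chr6:55295822-55295848, plus strand: tgcggtatcAACCCTGCCcggtcattt
Aqp3, first, chr4:41041843-41041869, minus strand: gcccacttgAACCCCGCTgtgaccttc
Aqp3, second, chr4:41040865-41040891, minus strand: tatgccgtcAACCCTGCCcgtgacttt
Aqp7, first, chr4:40982635-40982661, minus strand: gcccacatgAATGCCGCAgtgactttc
Aqp7, second, chr4:40981837-40981863, minus strand: tatgcaatcAACCCATCCcgtgacctg
Aqp11, first, chr7:104886186-104886212, minus strand: acagctagcAACCCGTGCggcgtgatg
Aqp11, second, chr7:104877554-104877580, minus strand: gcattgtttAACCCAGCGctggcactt

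Each of these windows lies inside a single coding exon. The capitals encode asparagine, proline and alanine in both windows of Aqp8, Aqp1 and Aqp3, in neither of Aqp7 and only in the second of Aqp11. Aqp7 had a further match near the end of its coding sequence, which is not printed. Reads that spanned all 9 capital bases numbered 777 and 1480 at the first and second window of Aqp8 in the colon cDNA fragmented library and 0 at both in the small intestine one. At Aqp3 the same counts were 9 and 25 in small intestine and 0 and 0 in colon, and at Aqp7 they were 3 and 13 in small intestine and 0 and 0 in colon. At Aqp1 they were 4 and 4 in small intestine and 1 and 1 in colon, and at Aqp11 they were 30 and 3 in small intestine and 43 and 6 in colon. In the RNA fragmented libraries these counts were 17 or fewer at each window. They are part of the reads of the whole gene, which are described next.

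**Figure D1:**
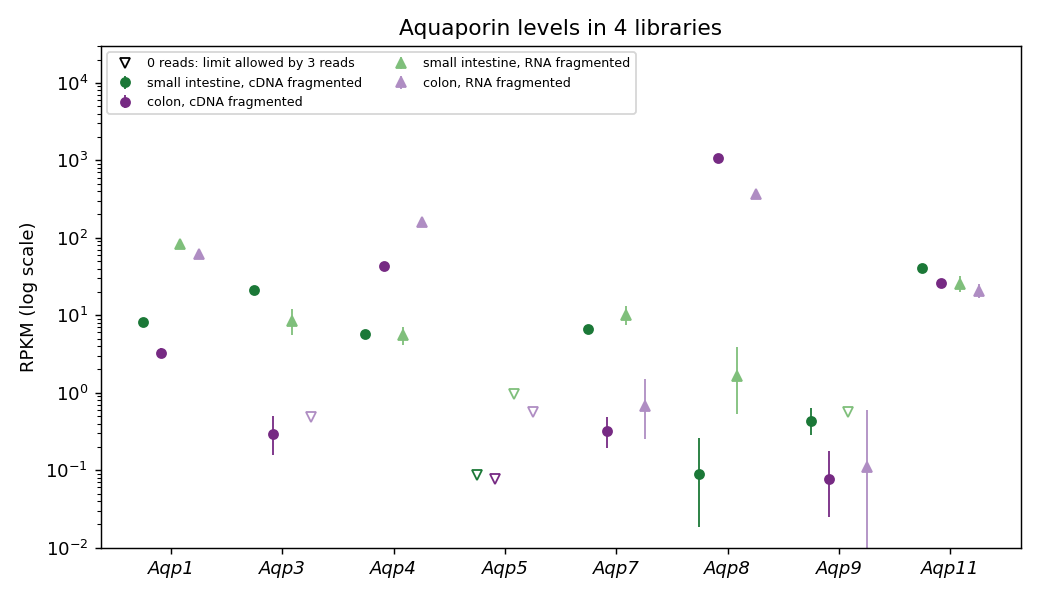
Levels of the 8 aquaporins in each library, as RPKM on a log axis. Points are single libraries, bars are exact 95% Poisson intervals (counting error only) and open triangles mark libraries with 0 reads at the level that 3 reads would give. Aqp8 lies at 1065 and 371 RPKM in colon, Aqp3 and Aqp7 lie higher in both small intestine libraries, and Aqp5 has no reads.

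Among the water channels, Aqp8 showed the widest difference between tissues of the 8 genes on the log2(RPKM + 1) scale, at 9.93 in the cDNA and 7.13 in the RNA fragmented pair. It is known from the absorptive epithelium of the colon, where it passes water and small solutes such as hydrogen peroxide. Aqp8 (chr7:130605808-130611517, plus strand, 6 exon blocks) had 3 reads in the small intestine and 39252 in the colon cDNA fragmented library, and 5 and 1916 in the RNA fragmented ones. These reads gave 0.0898 RPKM (0.0185 to 0.262) against 1065 RPKM (1055 to 1076), and 1.65 RPKM (0.537 to 3.86) against 371 RPKM (354 to 388). Both colon libraries were high and both small intestine libraries were near the level of 3 reads.

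The colon level of Aqp8 was 11863-fold (4059 to 57526) that of small intestine in the cDNA fragmented pair and 224-fold (95.9 to 691) in the RNA fragmented pair. The first of these ratios rests on 3 reads in small intestine. With start points counted in place of reads, the log2 ratio fell from 13.53 to 9.48 in the cDNA and from 7.81 to 5.59 in the RNA fragmented pair. The exon blocks of Aqp8 are 1486 bases long and offer 1 start point per base and strand. The colon cDNA fragmented library used 2237 of these for its 39252 reads. In the colon RNA fragmented library, which keeps the strand, 1916 reads used 330. The part of gene length, and of reads that share a start point, in the smaller ratios was not tested. In rank by RPKM, Aqp8 stood at place 84 of 20812 genes in the colon cDNA fragmented library and at place 155 in the colon RNA fragmented one.

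The tissue markers showed how ratios of other genes compared between the protocols. Car1, the colonic carbonic anhydrase with the most reads, had 0 reads in small intestine and 1619874 in colon in the cDNA fragmented pair, which is at least 489555-fold, but 68 and 25678 reads in the RNA fragmented pair, which is 221-fold (174 to 285). Hoxb13, a transcription factor of the distal gut, was 1358-fold (243 to 53680) and at least 16.8-fold higher in colon. Atp12a, a proton and potassium pump of the distal colon, was at least 444-fold and 353-fold (97.5 to 2919) higher. For neither gene do the counting intervals and bounds exclude equal ratios in the protocols. Car4, another carbonic anhydrase, had the larger ratio in the RNA fragmented pair, with 5.82-fold (5.69 to 5.96) by cDNA and 11.7-fold (9.59 to 14.5) by RNA fragmentation.

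Among the 7 small intestine markers, Sis, Lct, Apoa4 and Slc2a2 had larger ratios in the cDNA fragmented pair, with counting intervals that do not overlap. The share of all genes with such intervals was not calculated. Lct, the lactase, was 3822-fold (1492 to 14029) higher in small intestine by cDNA and 119-fold (96.5 to 148) by RNA fragmentation. The intervals of the other 3 overlap between the protocols, at 8.52-fold (8.46 to 8.59) and 8.05-fold (7.49 to 8.66) for Fabp2, 147-fold (62.5 to 453) and 83.7-fold (35.4 to 260) for Gata4 and 27.4-fold (23.2 to 32.6) and 32.6-fold (26.7 to 40.2) for Alpi. Whether RNA of one tissue was present in the RNA fragmented library of the other, and its part in the smaller ratio of Aqp8, was not tested.

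Aqp4 was the other water channel past 3-fold in colon. It is best known as the water channel of astrocyte end-feet and is also found in the basolateral membrane of gut epithelium. Aqp4 had 663 and 5416 reads in the small intestine and colon cDNA fragmented libraries and 57 and 2790 in the RNA fragmented ones. The levels were 5.80 RPKM (5.37 to 6.26) and 43.0 RPKM (41.8 to 44.1) by cDNA fragmentation and 5.51 RPKM (4.17 to 7.14) and 158 RPKM (152 to 164) by RNA fragmentation. The levels were alike in both small intestine libraries, with an RNA to cDNA fragmented ratio of 0.95 (0.711 to 1.25), while the same ratio in colon was 3.67 (3.51 to 3.85).

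The colon level of Aqp4 was 7.41-fold (6.83 to 8.04) that of small intestine in the cDNA fragmented pair and 28.6-fold (22.0 to 37.9) in the RNA fragmented pair, and these intervals do not overlap. Counted in start points, the log2 ratios were 2.34 instead of 2.89 and 3.60 instead of 4.84. Aqp4 is also expressed by glia and by skeletal muscle. The 6 enteric glia and neuron markers had summed levels of 6.54 RPKM in small intestine and 17.3 RPKM in colon by cDNA fragmentation and of 4.54 and 21.8 RPKM by RNA fragmentation, with Sox10 at 0 reads in the small intestine cDNA fragmented library and S100b at 0 in the small intestine RNA fragmented one. Of these markers 4 could be tested and limma called 1, Uchl1, higher in colon (9.55% of all genes were). The 4 skeletal muscle markers summed to 15.3 and 21.6 RPKM and to 6.21 and 17.4 RPKM, with Myh4 at 0 in all 4 libraries. Of these 2 could be tested and limma called 1, Ckm, higher in colon (beside the same 9.55%), while Acta1 stood at 9.37 and 9.34 RPKM and at 3.09 and 1.81 RPKM. The part of these cells and of smooth muscle in the Aqp4 difference was not tested, and in whole tissue a change in the share of a cell type and a change in RNA per cell cannot be told apart.

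Aqp1, the water channel of capillary endothelium and red blood cells, did not pass the 3-fold rule in either protocol. It had 510 and 226 reads in the small intestine and colon cDNA fragmented libraries and 463 and 593 in the RNA fragmented ones. Its level was 8.22 RPKM (7.52 to 8.96) in small intestine and 3.30 RPKM (2.89 to 3.76) in colon by cDNA fragmentation, and 82.4 RPKM (75.1 to 90.3) and 61.8 RPKM (56.9 to 66.9) by RNA fragmentation. Small intestine was the higher tissue in both pairs, by 2.49-fold (2.12 to 2.92) and 1.33-fold (1.18 to 1.51).

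For Aqp1 the levels differed more between libraries of different protocols than between libraries of different tissues. Protocol and mouse cannot be told apart in this. The RNA fragmented level was 10.0 times (8.82 to 11.4) the cDNA fragmented level in small intestine and 18.7 times (16 to 21.9) in colon. On the log2(RPKM + 1) scale these differences were 3.18 and 3.87, and only 2.35% of 14059 genes in small intestine and 0.89% of 14826 genes in colon had a difference as high. Along the gene (chr6:55286293-55298549, plus strand), the first of 4 exon blocks held 6.67% and 7.52% of the reads in the small intestine and colon cDNA fragmented libraries but 28.1% and 22.9% in the RNA fragmented ones. The last block, 70.2% of the length, held 91.2% and 84.1% of the cDNA fragmented reads and 70.2% and 75.0% of the RNA fragmented reads. The 7 endothelial markers, none at 0 in any library, summed to 29.3 and 27.8 RPKM in the small intestine and colon cDNA fragmented libraries and to 27.2 and 47.7 RPKM in the RNA fragmented ones. None of the 7 lay past 3-fold in either pair, but few genes did. Of all genes 2.73% were past it in small intestine and 3.21% in colon by cDNA fragmentation, and 3.73% and 6.56% by RNA fragmentation.

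Aqp5, the water channel of salivary, lacrimal and airway glands, had 0 reads in all 4 libraries. A count of 3 reads would have given 0.086 and 0.078 RPKM in the small intestine and colon cDNA fragmented libraries and 0.95 and 0.556 RPKM in the RNA fragmented ones, so Aqp5 was not detectable above these levels. The gene (chr15:99421459-99425260, plus strand) lies between Aqp2, the vasopressin-regulated water channel of the kidney, and Aqp6, with no other condensed gene in the gaps of 6.48 and 6.57 kb. Aqp2 also had 0 reads in all 4 libraries and Aqp6 had 1, 0, 0 and 1 read in the small intestine and colon cDNA fragmented and the small intestine and colon RNA fragmented libraries, so the whole cluster on chromosome 15 was close to empty.

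Of the 3 aquaglyceroporins, Aqp3 and Aqp7 were past 3-fold in small intestine in both protocols and Aqp9 in neither. Aqp3, a water and glycerol channel known from the basolateral membrane of epithelia and from the epidermis, had 836 reads in the small intestine and 13 in the colon cDNA fragmented library, and 30 and 0 in the RNA fragmented ones. Its level was 21.1 RPKM (19.7 to 22.6) against 0.297 RPKM (0.158 to 0.508), and 8.36 RPKM (5.64 to 11.9) against 0 RPKM with an upper bound of 0.602. Small intestine exceeded colon 70.9-fold (41.3 to 134) in the cDNA fragmented pair and at least 17.1-fold in the RNA fragmented pair, where colon was set to the floor of 3 reads. The 6 squamous epithelium markers, cells in which Aqp3 is also abundant, summed to between 0.238 and 1.18 RPKM in the 4 libraries, with Krt5 at 0 reads in 3 of them, and their part in the Aqp3 difference was not tested.

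Aqp7, the channel through which fat cells release glycerol, showed the same direction. It had 380 and 20 reads in the small intestine and colon cDNA fragmented libraries and 52 and 6 in the RNA fragmented ones. The levels were 6.70 RPKM (6.04 to 7.40) and 0.320 RPKM (0.195 to 0.493), and 10.1 RPKM (7.56 to 13.3) and 0.683 RPKM (0.251 to 1.49). Small intestine exceeded colon 21.0-fold (13.4 to 34.7) and 14.8-fold (6.36 to 42.2), and these intervals overlap. The 6 adipocyte markers, none at 0 in any library, had summed levels of 53.2 RPKM in small intestine and 189 RPKM in colon by cDNA fragmentation and of 27.3 and 147 RPKM by RNA fragmentation. Among them 4 could be tested and limma called 2, Adipoq and Cfd, higher in colon (9.55% of all genes were), while Cidec stood at 31.9 and 27.4 RPKM by cDNA and at 11.5 and 14.5 RPKM by RNA fragmentation.

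Aqp3 and Aqp7 are neighbours on chromosome 4, both on the minus strand (Aqp3 at chr4:41039757-41045216 and Aqp7 at chr4:40980107-40995169), with 44.6 kb and no other condensed gene between them. They also share a gene structure with Aqp9: internal exon blocks of 138, 119 and 218 bases follow each other in all 3 genes. The block before these is 127 bases long in Aqp3 and Aqp9 and 124 in Aqp7. A block of 127 bases also occurs in the water channel Aqp8. Blocks of 165 bases occur in Aqp1, Aqp4, Aqp5 and Aqp8, where in Aqp8 it is the first block and in the other 3 an internal one, and blocks of 81 bases in Aqp1 and Aqp4.

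Aqp9, the glycerol channel of hepatocytes that is also found in neutrophils, was near the limit of detection. It had 26 and 5 reads in the small intestine and colon cDNA fragmented libraries and 0 and 1 in the RNA fragmented ones, or 0.437 RPKM (0.286 to 0.641), 0.0763 RPKM (0.0248 to 0.178), 0 RPKM with an upper bound of 0.685 and 0.109 RPKM (0.00275 to 0.606). The cDNA fragmented pair gave a ratio of 5.74 (2.17 to 19.1) in favour of small intestine, which did not pass the 3-fold rule with its penalty, and the RNA fragmented pair allowed no comparison. The 5 liver markers summed to 15.9 and 114 RPKM in the small intestine and colon cDNA fragmented libraries and to 5.55 and 26.3 RPKM in the RNA fragmented ones, with Fgb at 0 in all 4. Ttr (4.23 and 68.5 RPKM by cDNA fragmentation) and Cyp2e1 (10.8 and 45.2 RPKM) supplied most of these sums and were the 2 tested, both called higher in colon by limma (9.55% of all genes were), while Alb stood at 0.0435 and 0.336 RPKM. The 6 neutrophil markers summed to between 1.28 and 2.37 RPKM, with Ngp at 0 in all 4.

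Aqp11, which is found in the endoplasmic reticulum, had the ratios closest to 1 among the 6 members with at least 10 reads in each pair. It had 1195 and 867 reads in the small intestine and colon cDNA fragmented libraries and 69 and 95 in the RNA fragmented ones. The levels were 40.2 RPKM (38.0 to 42.5), 26.4 RPKM (24.7 to 28.3), 25.6 RPKM (20 to 32.5) and 20.7 RPKM (16.7 to 25.3) in the same order. The small intestine to colon ratio was 1.52 (1.39 to 1.66) in the cDNA fragmented pair and 1.24 (0.897 to 1.71) in the RNA fragmented pair, where the interval includes 1.

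Aqp12, known from pancreatic acinar cells, had 1 and 24 reads in the small intestine and colon cDNA fragmented libraries and 0 and 1 in the RNA fragmented ones. The higher of the cDNA fragmented levels, 0.890 RPKM (0.570 to 1.32) in colon, stood in the library in which the acinar marker Cpa1 had 921 reads against 0 in small intestine. In that pair 6 of 8 acinar markers lay past 3-fold in colon (3.21% of all genes did). Clps went the other way, at 325 RPKM in small intestine and 148 RPKM in colon, and Amy2a5 had 0 reads. In the small intestine RNA fragmented library Cpa1 had 575 reads and Aqp12 had 0, at a level of 1.35 RPKM for 3 reads. The part of acinar cells in the Aqp12 reads was not tested. Mip, the lens water channel, had 1, 4, 1 and 1 read in the 4 libraries.

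Ordered by level, the small intestine cDNA fragmented library read Aqp11, Aqp3, Aqp1, Aqp7, Aqp4, Aqp9 and Aqp8, with Aqp5 at 0. The intervals of Aqp7 and Aqp4 overlap, and those of the other neighbours in this order do not. In the small intestine RNA fragmented library the order was Aqp1, Aqp11, Aqp7, Aqp3, Aqp4 and Aqp8, with Aqp5 and Aqp9 at 0, and the intervals of Aqp7 and Aqp3 and of Aqp3 and Aqp4 overlap. In colon the order was Aqp8, Aqp4, Aqp11, Aqp1, Aqp7, Aqp3 and Aqp9 by cDNA fragmentation, with overlap between Aqp7 and Aqp3 and between Aqp3 and Aqp9. It was Aqp8, Aqp4, Aqp1, Aqp11, Aqp7 and Aqp9 by RNA fragmentation, with overlap between Aqp7 and Aqp9. Aqp8 made up 93.6% of the summed RPKM of the 8 genes in the colon cDNA fragmented and 60.6% in the colon RNA fragmented library. In small intestine the largest shares were Aqp11 with 48.7% by cDNA fragmentation and Aqp1 with 61.6% by RNA fragmentation.

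**Figure D2:**
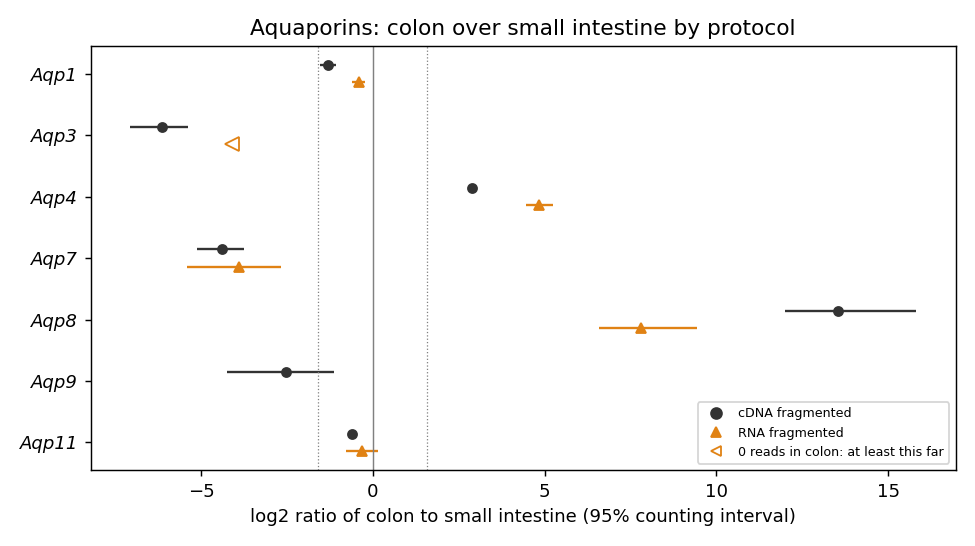
Log2 ratio of the colon to the small intestine level of each aquaporin with reads, for the cDNA fragmented pair (circles) and the RNA fragmented pair (triangles). Bars are exact 95% counting intervals, the open arrow is a bound and dotted lines mark 3-fold. Aqp4 and Aqp8 lie to the right and Aqp3 and Aqp7 to the left of the dotted lines in both pairs.

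The study's rule for raised expression asks that the level in 1 tissue be at least 3 times the level in the other after 1 RPKM is added to the latter. Aqp3 and Aqp7 met it in small intestine and Aqp4 and Aqp8 in colon, in both protocols, and Aqp1, Aqp5, Aqp9 and Aqp11 met it in neither. So 2 of 8 members, or 2 of all 12 aquaporins, were past 3-fold in small intestine, where the rule called 2.73% of 16455 genes in the cDNA and 3.73% of 15058 genes in the RNA fragmented pair. In colon 2 of 8 members, again 2 of all 12 aquaporins, were past it, against 3.21% and 6.56% of the same genes. The median difference between colon and small intestine on the log2(RPKM + 1) scale was -0.50 over the 8 members and 0.16 over all genes in the cDNA fragmented pair, and -0.15 and 0.30 in the RNA fragmented pair. With 1 library per tissue neither pair allows a test against replicate error.

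**Figure D3:**
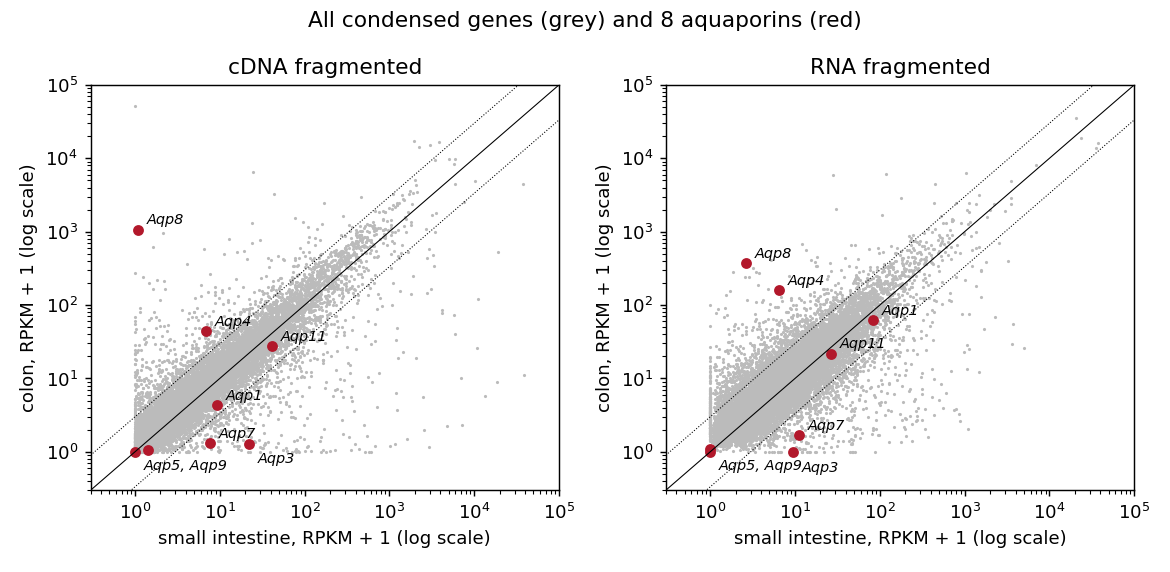
Level in colon against small intestine for all condensed genes with at least 10 reads in the pair (grey) and for the 8 aquaporins (red), as RPKM + 1 on log axes, for each protocol. The solid line marks equal levels and the dotted lines 3-fold on this scale. Aqp8 and Aqp4 lie above and Aqp3 and Aqp7 below the dotted lines in both panels.

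Over both protocols the tissue difference was tested with limma on log2(RPKM + 1), with protocol as a term beside tissue, in 13002 genes with at least 10 reads in each pair. A gene's own spread is then what its 2 pairs disagree by, in which protocol and mouse cannot be told apart. It has 1 residual degree of freedom per gene, and most of the estimate is taken from all genes (17.6 prior degrees of freedom). The SE and p-value of a single gene therefore reflect mostly the spread over all genes. Among 6 members tested, 4 were called at a Benjamini-Hochberg adjusted p of 0.05, 2 in each direction, against 4.58% of genes called higher in small intestine and 9.55% higher in colon. Aqp8 was 8.53 ± 0.49 (SE) higher in colon on this log2 scale (adjusted p = 7.45e-10, limma) and Aqp4 was 3.65 ± 0.44 higher (adjusted p = 5.73e-06, limma). Aqp3 fell by 3.66 ± 0.42 from small intestine to colon (adjusted p = 3.32e-06, limma) and Aqp7 fell by 2.63 ± 0.40 (adjusted p = 0.000118, limma). The direction was the same in both pairs for all 4 genes. In the cDNA and RNA fragmented pairs the differences were 9.93 and 7.13 for Aqp8 and 2.69 and 4.61 for Aqp4. They were -4.09 and -3.23 for Aqp3 and -2.54 and -2.72 for Aqp7. The size on this scale depends on the 1 RPKM added: with 0.1 RPKM in its place Aqp3 was at -6.07, Aqp7 at -3.86 and Aqp8 at 10.09, and with 10 RPKM they were at -1.24, -0.80 and 5.88.

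Aqp1 had a difference of -0.75 ± 0.39 (adjusted p = 0.217, limma) and Aqp11 one of -0.44 ± 0.37 (adjusted p = 0.48, limma). Neither was called, against a spread taken mostly from all genes. Both were lower in colon in the cDNA and RNA fragmented pairs, at -1.1 and -0.41 for Aqp1 and -0.59 and -0.3 for Aqp11. Aqp5 and Aqp9 had too few reads to be tested.

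**Figure D4:**
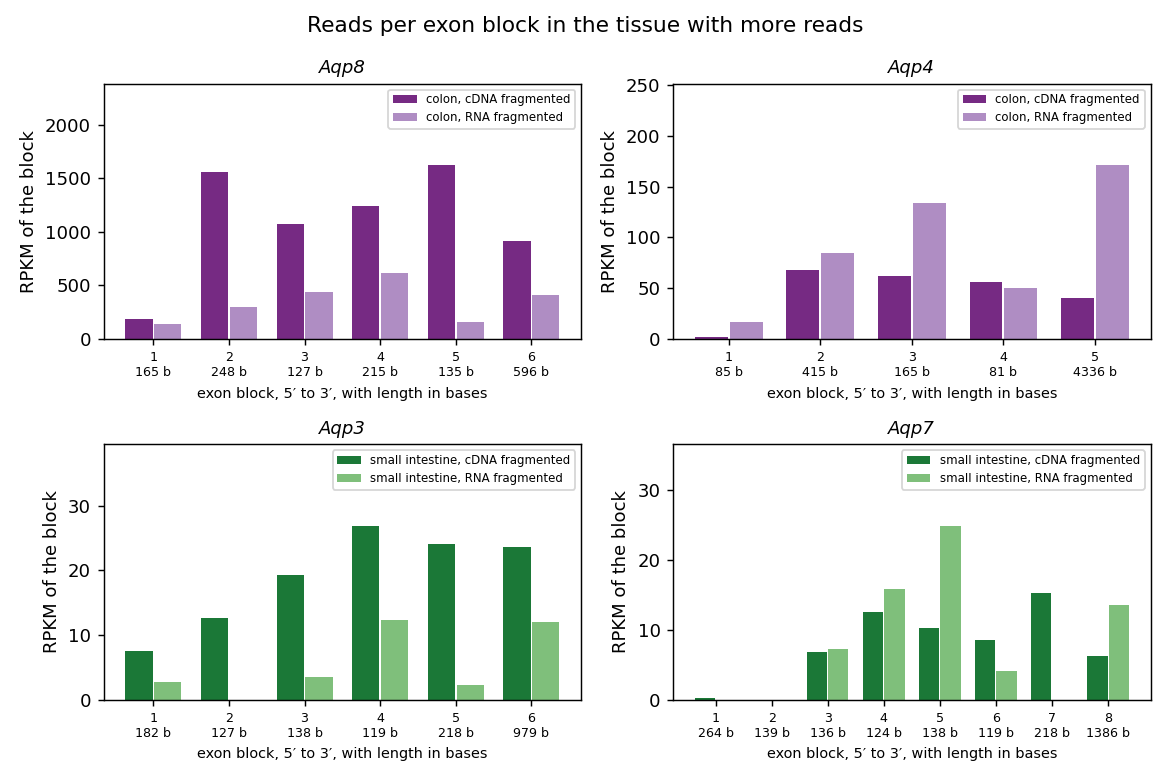
Level of each exon block, in RPKM of the block, from the 5′ to the 3′ end of the gene, in the 2 libraries of the tissue with more reads. Aqp8 and Aqp4 are shown in colon, and Aqp3 and Aqp7 in small intestine. The first block of Aqp4 stands at 1.42 and 16.9 RPKM by cDNA and RNA fragmentation, the first 2 blocks of Aqp7 hold 1 read in all, and the first block of Aqp8 is lower than the others.

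Reads were spread over the exon blocks of these 4 genes and not held by 1 position. The start point with the most reads held 0.189% of the Aqp8 reads in the colon cDNA fragmented and 6.84% in the colon RNA fragmented library. For Aqp4 in colon these shares were 0.203% and 1.58%, for Aqp3 in small intestine 0.598% and 13.3%, and for Aqp7 in small intestine 0.789% and 7.69%. In the colon cDNA fragmented library the blocks of Aqp8 lay between 914 and 1622 RPKM apart from the first, which was at 181 RPKM. In the colon RNA fragmented library the first and the fifth block were low, at 139 and 153 RPKM, and the others lay between 300 and 619 RPKM. The Aqp3 blocks in the small intestine cDNA fragmented library lay between 7.58 RPKM in the first and 26.9 RPKM in the fourth.

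In the tissue with more reads, the annotated 5′ ends of Aqp7 and Aqp4 held few of them. The first 2 blocks of Aqp7, which together are 403 bases long, held 1 of 380 reads in the small intestine cDNA fragmented library and 0 of 52 in the RNA fragmented one, whereas the third block of 136 bases held 21 and 2. At the depth of the RNA fragmented library a count of 0 does not mark the 5′ end, since the seventh block of 218 bases also held 0 of 52 reads there, against 75 of 380 in the cDNA fragmented library. In colon the first 2 blocks held 1 of 20 reads by cDNA and 2 of 6 by RNA fragmentation. The first block of Aqp4, 85 bases long, held 3 of 5416 reads in the colon cDNA fragmented library (1.42 RPKM), while the second block stood at 67.9 RPKM. In the colon RNA fragmented library the same blocks stood at 16.9 and 84.5 RPKM. Reads that cross exon borders were not counted, and their part in these values was not tested.

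By the rule that compares log2(RPKM + 1) over the 4 libraries, the genes most like Aqp8 were Hao2, an oxidase of hydroxy acids, with a largest difference of 0.78, followed by 1110032A04Rik with 1.91 and Retnlb, a secreted goblet cell protein, with 2.16. Hao2 stood at 0.653, 622, 2.17 and 316 RPKM in the small intestine and colon cDNA fragmented and the small intestine and colon RNA fragmented libraries. The nearest to Aqp4 were Prnp (0.69), which encodes the prion protein, Acsl3 (0.78), a ligase that activates fatty acids, and Gne (0.89), an enzyme of sialic acid synthesis.

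The nearest to Aqp3 were Bbox1 (0.44), the last enzyme of carnitine synthesis, Cndp1 (0.45), a dipeptidase, and Slc2a7 (0.55), a sugar transporter. Bbox1 stood at 17.7, 0.471, 8.75 and 0.353 RPKM in the same order of libraries. The nearest to Aqp7 were Proz (0.38), a plasma protein of the clotting system, Gpr155 (0.42) and Bend7 (0.42). These are likenesses over 4 libraries and carry no test.

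The salt and sugar transporters that water follows were examined as a list of 16 genes. In the cDNA fragmented pair 2 were past 3-fold in small intestine and 4 in colon, and in the RNA fragmented pair 2 and 5, where the shares over all genes were 2.73% and 3.21% and then 3.73% and 6.56%. The limma fit over both protocols called 2 higher in small intestine and 7 higher in colon, beside 4.58% and 9.55% of all genes, and 7 of 16 did not pass. Slc5a1, the sodium and glucose cotransporter of the brush border, stood at 1218 and 47.7 RPKM in the small intestine and colon cDNA fragmented libraries and at 1119 and 75.2 RPKM in the RNA fragmented ones. Slc26a3, the chloride and bicarbonate exchanger of the colon, stood at 110 and 730 RPKM and at 41.9 and 340 RPKM. Scnn1b, a subunit of the epithelial sodium channel, had 0 reads in both small intestine libraries and 204 and 93 in the colon ones.

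Neither subunit of the sodium pump passed the limma test. Atp1b1 stood at 291 and 194 RPKM in the small intestine and colon cDNA fragmented libraries and at 1186 and 870 RPKM in the RNA fragmented ones (adjusted p = 0.434, limma). Scaling by the median ratio between tissues lowered the count past 3-fold in colon in the cDNA fragmented pair from 4 to 2 and left the other counts of this list as they were.

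Enzymes that make or use glycerol, glycerol phosphate or triglyceride were examined as a list of 12 genes. In the cDNA fragmented pair 6 were past 3-fold in small intestine and 1 in colon, and in the RNA fragmented pair 5 and 1, or 7 and 1 when scaled by the median ratio, beside 2.73% and 3.21% and then 3.73% and 6.56% of all genes. The limma fit called 6 higher in small intestine and 1 higher in colon, beside 4.58% and 9.55% of all genes, and 5 did not pass. Mogat2, which rebuilds triglyceride from absorbed monoglyceride, stood at 552 and 9.56 RPKM in the small intestine and colon cDNA fragmented libraries and at 314 and 6.17 RPKM in the RNA fragmented ones. Gpd1, which makes glycerol phosphate from glycolysis, stood at 163 and 20.5 RPKM and at 136 and 18.9 RPKM.

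Gpd2, the mitochondrial enzyme that uses glycerol phosphate, stood at 76.3 and 18.5 RPKM and at 64 and 17.2 RPKM. Gyk, the glycerol kinase, stood at 79.6 and 5.67 RPKM by cDNA fragmentation and at 66.8 and 22.7 RPKM by RNA fragmentation, past 3-fold in the first pair only. Its difference over both protocols was -2.56 ± 0.44 (adjusted p = 0.000412, limma). Mgll went the other way and was called higher in colon (adjusted p = 0.000333, limma). It stood at 2.07 and 12.5 RPKM in small intestine and colon by cDNA and at 4.67 and 34.4 RPKM by RNA fragmentation. Lipe (adjusted p = 0.0694, limma) and Pnpla2 (adjusted p = 0.754, limma) were not called.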

How the data were processed

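The authors deposited, per library, the positions, strands and color mismatches of single reads with 35 colors, matched to RefSeq exons of mm9 (up to 3 mismatches, 1 placement only), a report of these numbers and tables of exons and junctions. The deposited files hold no normalized values, and while the study's methods name BioScope for matching to the whole genome, the tool that made these matches to exons is not given in the sources used here. Reads were counted on exon blocks (tolerance 3 bases) and summed per condensed gene, and RPKM, the 3-fold rule with a penalty of 1 RPKM and exact intervals were calculated. Counts equalled the authors' totals in all 4 libraries. Junction placements (0.754% to 0.822% of reads) were left out. A count model had been planned for the test over both protocols. No deposited column holds counts per gene, and the counts made here were not put through a count model. limma 3.58.1 (R 4.3.3) was run on log2(RPKM + 1) instead. It was also run on simulated data with the same tissue difference in both protocols. These data do not show how the fit behaves where the protocols differ in it. scipy 1.17.1, pandas 2.3.3, numpy 2.4.6, Biopython 1.88 and matplotlib 3.10.9 were used. A count of 0 was set against 3 reads. Named genes were the 12 aquaporins, the 3 genes nearest to each member past 3-fold in both protocols, and from each list those with the most reads or with 0 reads in a library. Sex-linked genes and further listed genes (Gata4, Alpi, Slc2a2, Uchl1, Ckm, Acta1, Adipoq, Cidec, Cfd, Ttr, Cyp2e1, Mgll, Lipe and Pnpla2 among them) were named after their values were seen. Members and lists were chosen with earlier results of these data known. Of the listed genes 1 was not found. Some listed marker genes are not reported here.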

Additional observations from a re-analysis of the deposited data

How the results depend on the processing

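No paired analysis was possible because the labels tie no library to a mouse, and the limma fit sets the tissues side by side only within each protocol. The counts of 4 members past 3-fold in each pair and of 4 called by limma stayed at 4 under every alternative run, namely median-of-ratios scaling, at most 1 color mismatch, start points, unshared exon blocks and a penalty of 0.1 RPKM for the pairs, reads on the annotated strand for the RNA fragmented pair and the limma fit, and for that fit also no filter on low values and pseudocounts of 0.1 and 10 RPKM, the last 2 chosen after seeing the data. Adjusted p-values (limma) over these alternatives ranged up to 0.00129 for Aqp8, 0.00917 for Aqp3, 0.00964 for Aqp4 and 0.0234 for Aqp7, each without the filter, and lay between 0.0867 and 0.416 for Aqp1 and between 0.224 and 0.55 for Aqp11. Median-of-ratios scaling moved every log2 ratio by -0.40 in the cDNA and -0.34 in the RNA fragmented pair, so that Aqp1 went to -1.72 and -0.76. Aqp11 went from -0.60 to -1.01 and from -0.31 to -0.65, so how near its ratios lie to equal levels depends on the scaling. The planned count models were not run. Leaving out 1 library leaves the value of the other protocol with no test, which lay between 7.13 and 9.93 for Aqp8, 2.69 and 4.61 for Aqp4, -4.09 and -3.23 for Aqp3 and -2.72 and -2.54 for Aqp7. The Aqp4 value without either cDNA fragmented library (4.61) exceeds that without either RNA fragmented one (2.69). The limma differences themselves ranged from 5.88 to 10.09 for Aqp8, 2.59 to 3.84 for Aqp4, -6.07 to -1.24 for Aqp3 and -3.86 to -0.80 for Aqp7, with both ends set by the pseudocount. Depth limits Aqp5, Aqp9 and the low side of Aqp8.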
